A study of Mus musculus with 6 samples.

Results

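The genes described here carry the calcium signal that starts development in the mouse egg. They were chosen by name: Itpr1, Itpr2, Stim1, Orai1, Trpm7, Atp2a2, Camk2g, Calm2 and Rgs2, with every probe set that the array annotation pairs with exactly 1 of these symbols. Of these 9 genes, 6 had such probe sets, 19 in all, out of 11429 genes and 21646 probe sets tested. Itpr1, Stim1 and Calm2 were not analysed here. The study set 3 arrays of full-size oocytes that still held the germinal vesicle (GV), the nucleus of meiotic prophase arrest, against 3 arrays of ovulated oocytes halted in metaphase II (MII). All came from mice of 22 to 24 days, of a strain that the labels do not give, primed with 5 IU of equine chorionic gonadotropin (eCG). The GV oocytes were freed from large antral follicles 44 to 46 h after eCG and held immature with 5 µM milrinone, a phosphodiesterase inhibitor. For the MII samples the labels give the same 44 to 46 h of eCG, and these mice also received 5 IU of human chorionic gonadotropin (hCG). The MII oocytes were taken from the oviduct 14 h after hCG and were chosen for a visible polar body. Each sample pooled 300 denuded oocytes and gave 10 ng of RNA to the labelling, so a level is relative to total RNA, and fewer cells of a type and less RNA per cell cannot be told apart.

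At fertilisation a sperm phospholipase produces inositol trisphosphate (IP3), which opens IP3 receptors in the endoplasmic reticulum and releases calcium in repeated waves. Between waves the SERCA pump returns calcium to the store, and channels in the plasma membrane replace what is lost. Calmodulin and its kinase CaMKII pass the signal to the cell cycle machinery, and the egg leaves its metaphase arrest. The egg acquires the capacity for these waves during maturation, the interval between the stages compared here.

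Of the 2 measured genes for calcium entry, the store-operated channel gene Orai1 fell at both probe sets in MII oocytes, while the channel-kinase gene Trpm7 fell at 1 of 3 and not at its brightest. The type 2 IP3 receptor gene Itpr2 was not called at any of 4 probe sets, and the pump gene Atp2a2 showed a small fall at 1 of 4. Camk2g, the effector kinase, and Rgs2, a brake on the Gq protein upstream of IP3, each had 1 probe set higher and 1 lower. In numbers, limma called 8 of the 19 probe sets (45.0% of all probe sets were called): 2 higher (10.5%, where 10.9% of all probe sets were) and 6 lower (31.6%, against 34.1% of all). The values of the stages did not overlap at 10 of the 19 probe sets (52.6%, against 54.0% of all), with 3 higher and 7 lower (14.6% and 39.4% of all). These shares lie near those of all probe sets and so say nothing particular about these genes. The median log2 difference was -0.21 over the 19 and -0.15 over all probe sets. Without GV replicate 2, GV replicate 3 or MII replicate 2 the number higher was 1, and without GV replicate 1 it was 3.

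**Figure D1:**
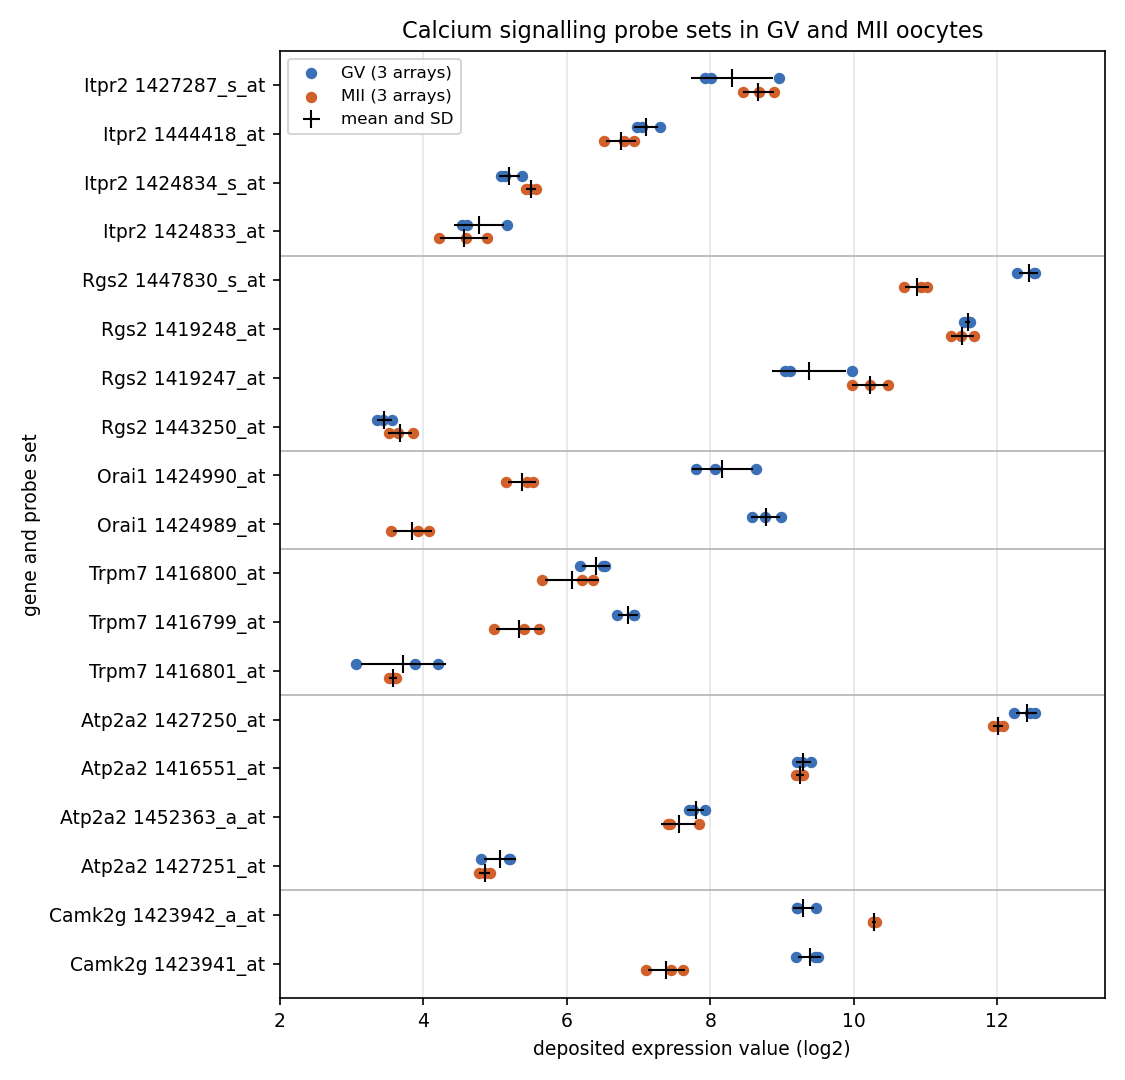
Deposited log2 expression values (horizontal axis) of each of the 19 probe sets (vertical axis, by gene) on the 3 GV arrays (blue) and 3 MII arrays (orange), with the mean and SD of each stage in black. The Orai1 values separate most widely, while the probe sets of Camk2g and Rgs2 move apart in opposite directions.

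Arrays of a stage correlated at 0.988 to 0.991 across probe sets and arrays of different stages at 0.885 to 0.906, and the number of arrays limits the precision. Oocyte identity was clear: of 14 measured oocyte markers all had means above the median probe set, and Gdf9 ranked above the 99th percentile at both stages (99.68 or more). Of these 14, limma called 8 lower in MII oocytes and 1 higher. Their summed linear level was 49702 to 53187 in GV and 30847 to 31731 in MII arrays. Of 7 measured markers of granulosa and cumulus cells, limma called 3 lower in MII oocytes and 0 higher, and their summed linear level was 434 to 493 in GV and 263 to 331 in MII arrays. The 3 markers called lower were Inhba (6.42 in GV and 5.02 in MII), Nr5a2 (7.66 and 6.81) and Fshr (4.32 and 3.81). Of the 7 markers 2 had a mean above the median probe set. The part of such cells in the falls reported here was not tested. All 5 measured genes of cumulus expansion and both measured oviduct and blood markers lay below the median of every array. Array medians were 6.10 to 6.12 for GV and 5.47 to 5.49 for MII. Making them equal shifts every log2 difference upward by about 0.62, quantile normalization shifts the median difference by 0.34, and equal hybridization or poly-A controls shift it by -0.40 and -0.87. The poly-A control means were below the median of each array, at 4.28 to 4.71 in GV and 5.14 to 5.43 in MII. The poly-A scaling thus rests on dim controls. Of the 19 probe sets 13 changed sign in at least 1 of these 4 other scalings, 6 were called in both directions among the 5, and 5 were called lower in all 5: both of Orai1 and 1 each of Trpm7, Camk2g and Rgs2. None of the 19 was called higher in all 5 (0 probe sets), where poly-A controls equal left only 65 of all 21646 probe sets called higher. The shares of all probe sets for these counts were not computed, so the counts say nothing particular about these genes. The design text calls the 3 samples of a stage biological replicates.

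Release was represented by Itpr2, which encodes the type 2 IP3 receptor, a channel of the endoplasmic reticulum opened by IP3. The gene planned for this role, Itpr1, was not analysed here, so the values of Itpr2 do not stand for it. Its brightest probe set, 1427287_s_at, read 8.96, 7.93 and 8.02 on the GV arrays and 8.67, 8.89 and 8.45 on the MII arrays. GV replicate 1 lay above all MII values and the other GV arrays below them, so the stages overlapped. The difference of 0.37 ± 0.26 (SE, log2; 95% interval -0.20 to 0.95) was not called (adjusted p = 0.28, limma with Benjamini-Hochberg). Without GV replicate 1 it was 0.70 and called higher (adjusted p = 0.0095, limma). The hybridization controls of GV replicate 1 were likewise brighter, at 9.82 against 8.97 and 8.94 on the other GV arrays and 9.42 to 9.86 on the MII arrays, and their part in this value was not tested. With array medians equal the same probe set was at 1.00 and called, and with hybridization controls equal at -0.03.

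The other probe sets of Itpr2 went to both sides of 0 and were not called as deposited. Probe set 1444418_at read 7.30, 6.98 and 7.05 in GV and 6.80, 6.94 and 6.53 in MII. All MII values were lower, with a difference of -0.35 ± 0.16 (SE) and an adjusted p of 0.097 (limma, Benjamini-Hochberg), although the sign turned with equal medians (0.27) and after quantile normalization (0.31). Probe set 1424834_s_at read 5.37, 5.14 and 5.09 in GV and 5.57, 5.44 and 5.49 in MII, with all MII values higher and a difference of 0.30 (-0.11 with hybridization controls equal). Probe set 1424833_at overlapped between stages, at 4.54 to 5.17 and 4.22 to 4.88. Both of these dim probe sets were below the median of every GV array.

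Rgs2 accelerates the shut-off of Gq and is known in mouse eggs for limiting calcium release before fertilisation. Its brightest probe set, 1447830_s_at, read 12.51, 12.52 and 12.28 in GV and 10.94, 11.02 and 10.69 in MII oocytes. Every MII value was lower, and the difference of -1.55 ± 0.15 (SE), a 2.93-fold fall, was called in all 5 scalings (adjusted p = 1.2e-05 as deposited, limma). These GV values lie near the top of the arrays' range (13.3). The next probe set, 1419248_at, read 11.54, 11.62 and 11.60 in GV and 11.36, 11.68 and 11.50 in MII. Here the stages overlapped, with a difference of -0.07 and a 95% interval of -0.38 to 0.24 (0.55 and called higher with array medians equal, 0.10 after quantile normalization, 0.0038 without MII replicate 1).

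A further probe set of Rgs2 went the other way. Probe set 1419247_at read 9.97, 9.04 and 9.12 in GV and 10.22, 10.48 and 9.98 in MII oocytes. GV replicate 1 came close to the lowest MII value, and the other GV arrays were well below. It was called higher at 0.85 ± 0.25 (SE; 1.80-fold; adjusted p = 0.017, limma with Benjamini-Hochberg). The call was lost without GV replicate 2 (0.68), GV replicate 3 (0.72) or MII replicate 2 (0.73), with hybridization controls equal (0.45) and with poly-A controls equal (-0.02). It was also lost in a limma fit with no moderation of the variance (adjusted p = 0.13). The dimmest probe set, 1443250_at, stayed between 3.36 and 3.86 on the 6 arrays, below every array median, and was not called. The annotation gives 1419248_at and 1419247_at the same source sequence and 1447830_s_at another, and the type _s_at is taken as matching several transcripts.

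Entry through the plasma membrane was represented by Orai1 and Trpm7. Orai1 forms the channel pore that opens when the sensor Stim1 reports an empty store. Its probe set 1424989_at read 8.58, 8.99 and 8.76 in GV and 3.92, 4.08 and 3.54 in MII oocytes. The stages lay far apart. In MII the values were below the median of each array, so the fold on a given scale is a lower bound. As deposited, the difference of -4.93 ± 0.18 (SE) corresponds to a fall of at least 30.4-fold (adjusted p = 2.8e-08, limma). Of all probe sets 0.310% fell as far. With array medians equal the difference was smaller, at -4.30. This probe set went from the 81.2 to 85.2 percentile range of the GV arrays to 18.1 to 27.0 on the MII arrays.

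The second Orai1 probe set, 1424990_at, which had the higher mean, gave a smaller fall. It read 8.63, 8.07 and 7.80 in GV and 5.53, 5.15 and 5.45 in MII oocytes. All MII values were lower, with a difference of -2.79 ± 0.21 (SE), a 6.92-fold fall (adjusted p = 2.4e-06, limma), and 4.13% of all probe sets fell as far. Both probe sets were called lower in all 5 scalings and without each array in turn. The differences ranged from -2.17 (array medians equal) to -3.66 (poly-A controls equal) for 1424990_at and from -4.30 to -5.80 for 1424989_at.

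Trpm7 is a channel for divalent cations joined to a kinase, and it contributes to calcium entry in mouse eggs. Probe set 1416799_at read 6.94, 6.70 and 6.94 in GV and 5.40, 4.99 and 5.61 in MII. The stages did not overlap, and the difference of -1.52 ± 0.18 (SE), a 2.88-fold fall, was called in all 5 scalings (adjusted p = 5.6e-05 as deposited, limma). Its brightest probe set, 1416800_at, read 6.19, 6.54 and 6.50 in GV and 6.37, 5.65 and 6.21 in MII. These values overlapped, with a difference of -0.33 (95% interval -0.78 to 0.12; 0.29 with array medians equal, 0.34 after quantile normalization). The dim probe set 1416801_at ranged from 3.06 to 4.21 in GV and from 3.52 to 3.62 in MII oocytes and was not called (-0.47 and adjusted p = 0.0499 by limma without GV replicate 2). All 3 probe sets share a source sequence in the annotation.

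The pump gene Atp2a2 encodes SERCA2, which loads calcium into the endoplasmic reticulum. Its brightest probe set, 1427250_at, read 12.24, 12.52 and 12.46 in GV and 12.01, 11.94 and 12.08 in MII oocytes. Every MII value was lower, but the difference was small, -0.40 ± 0.14 (SE) or a 1.32-fold fall (adjusted p = 0.040, limma with Benjamini-Hochberg). This call was lost without any 1 of GV replicate 2, GV replicate 3, MII replicate 1, MII replicate 2 or MII replicate 3 (differences from -0.34 to -0.43), as after quantile normalization (-0.28) and with hybridization controls equal (-0.80), and the sign turned with array medians equal (0.23). These values, like the brightest of Rgs2, lie near the top of the arrays' range.

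For the other Atp2a2 probe sets the stages overlapped. Probe set 1416551_at read 9.21, 9.41 and 9.27 in GV and 9.27, 9.19 and 9.29 in MII oocytes. Its difference was -0.05, with a 95% interval of -0.34 to 0.25. With array medians equal this became 0.58, a called rise, and with poly-A controls equal -0.92, a called fall. Probe set 1452363_a_at differed by -0.23 (0.39 and called with array medians equal, 0.38 after quantile normalization). Probe set 1427251_at, below the median of every array, differed by -0.21 (0.41 and called with array medians equal, 0.29 after quantile normalization).

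Camk2g encodes the gamma form of CaMKII, the form that mouse eggs need to leave metaphase arrest. Its brightest probe set, 1423942_a_at, read 9.21, 9.21 and 9.47 in GV and 10.26, 10.28 and 10.32 in MII oocytes. Every MII value was higher, and the rise of 0.99 ± 0.14 (SE), or 1.98-fold, was called (adjusted p = 0.00019, limma with Benjamini-Hochberg). Of all probe sets 1.70% rose as far, and the call held without each array in turn. It was lost with hybridization controls equal (0.58) and poly-A controls equal (0.11). The type _a_at is taken as matching several transcripts of a gene.

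The other probe set of Camk2g, 1423941_at, has the same source sequence in the annotation. It read 9.46, 9.50 and 9.20 in GV, much as the first, and 7.62, 7.11 and 7.45 in MII oocytes. All MII values were lower, and the difference of -1.99 ± 0.17 (SE), a 3.99-fold fall, was called in all 5 scalings (adjusted p = 4.9e-06 as deposited, limma). Camk2g therefore had no single direction on these arrays.

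**Figure D2:**
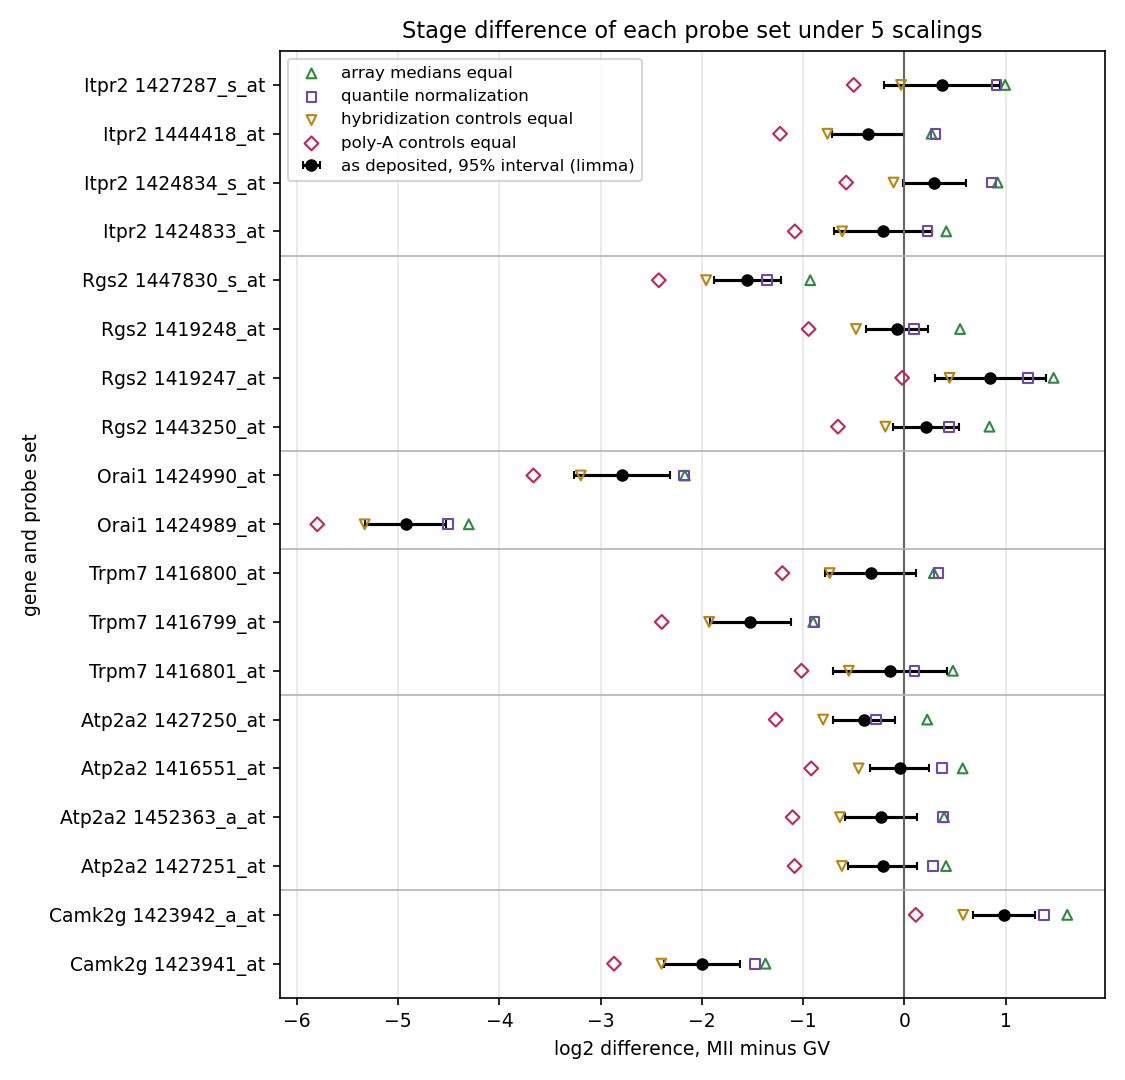
Log2 difference between stages (MII minus GV, horizontal axis) for each of the 19 probe sets (vertical axis), as deposited with its 95% interval from limma (black) and under 4 other scalings between arrays (open symbols). The 5 probe sets whose symbols all lie well to the left of 0 are those of Orai1 and 1 each of Rgs2, Trpm7 and Camk2g; the fall is called in each scaling.

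Because a shift of a whole array cancels in the difference between 2 probe sets on the same array, the probe sets of a gene were also compared within arrays. For Camk2g, 1423941_at minus 1423942_a_at was 0.24, 0.29 and -0.27 on the GV arrays and -2.64, -3.17 and -2.87 on the MII arrays. The gap thus moved by -2.98 ± 0.24 (SE), with no overlap. Among the 2856 genes with 2 probe sets, 3.61% had stage differences at least as far apart, and the median gap was 0.56. For Orai1 the gap between its probe sets was -0.05, 0.91 and 0.96 in GV and -1.61, -1.07 and -1.91 in MII oocytes, a measured move of -2.13 ± 0.41 (SE). Of the same 2856 genes 9.17% spread as far. In MII oocytes 1424989_at lay below the median of every array, and 1424990_at (5.53, 5.15 and 5.45) lay near the medians (5.47 to 5.49). The size of the Orai1 move is therefore uncertain in both directions.

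In Rgs2, 1419247_at minus 1447830_s_at was -2.54, -3.48 and -3.17 in GV and -0.72, -0.54 and -0.72 in MII oocytes. The move of 2.40 ± 0.28 (SE) was the widest of the 4 probe sets of this gene, and 20.2% of the 450 genes with 4 probe sets spread as far. For 1419248_at the move against the same probe set was 1.48 ± 0.14, again with no overlap. Trpm7 moved by -1.19 ± 0.20 between 1416799_at and 1416800_at. Its stage differences spread by 1.38 over all 3 probe sets, from 1416799_at to the dim 1416801_at, and 31.3% of the 1197 genes with 3 probe sets spread as far. The smallest spread was that of Atp2a2, whose 4 probe sets differed by 0.35 at most, and 91.3% of genes with 4 probe sets spread at least as far, against 72.4% for Itpr2 with 0.73.

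In all, 9 of 13 comparisons with a gene's brightest probe set did not overlap between stages (69.2%, against 52.8% of all such comparisons on the arrays). Of the 4 comparisons within 1 source sequence, 3 did not overlap: those of Camk2g and Orai1 and 1 of Trpm7. The share of such same-source comparisons over all genes was not computed. The exact permutation test, 2-sided, gave p = 0.1 for each of the 9, the smallest it can give for 3 against 3 samples, and 0.14 after Benjamini-Hochberg adjustment over the 13, so none could pass 0.05. Calls in opposite directions occurred in 2 of the 6 genes, Camk2g and Rgs2 (33.3%, against 10.8% of the 4739 genes with several probe sets). This count was 1, Camk2g, without GV replicate 2, GV replicate 3 or MII replicate 2 or with no moderation, and 0 with hybridization or poly-A controls equal (0.844% and 0.928% of the 4739 genes). These shares were not matched for the number of probe sets. Of the 4739 genes 2856 had 2, while the 6 genes here had 2 to 4, so the shares are not like for like.

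**Figure D3:**
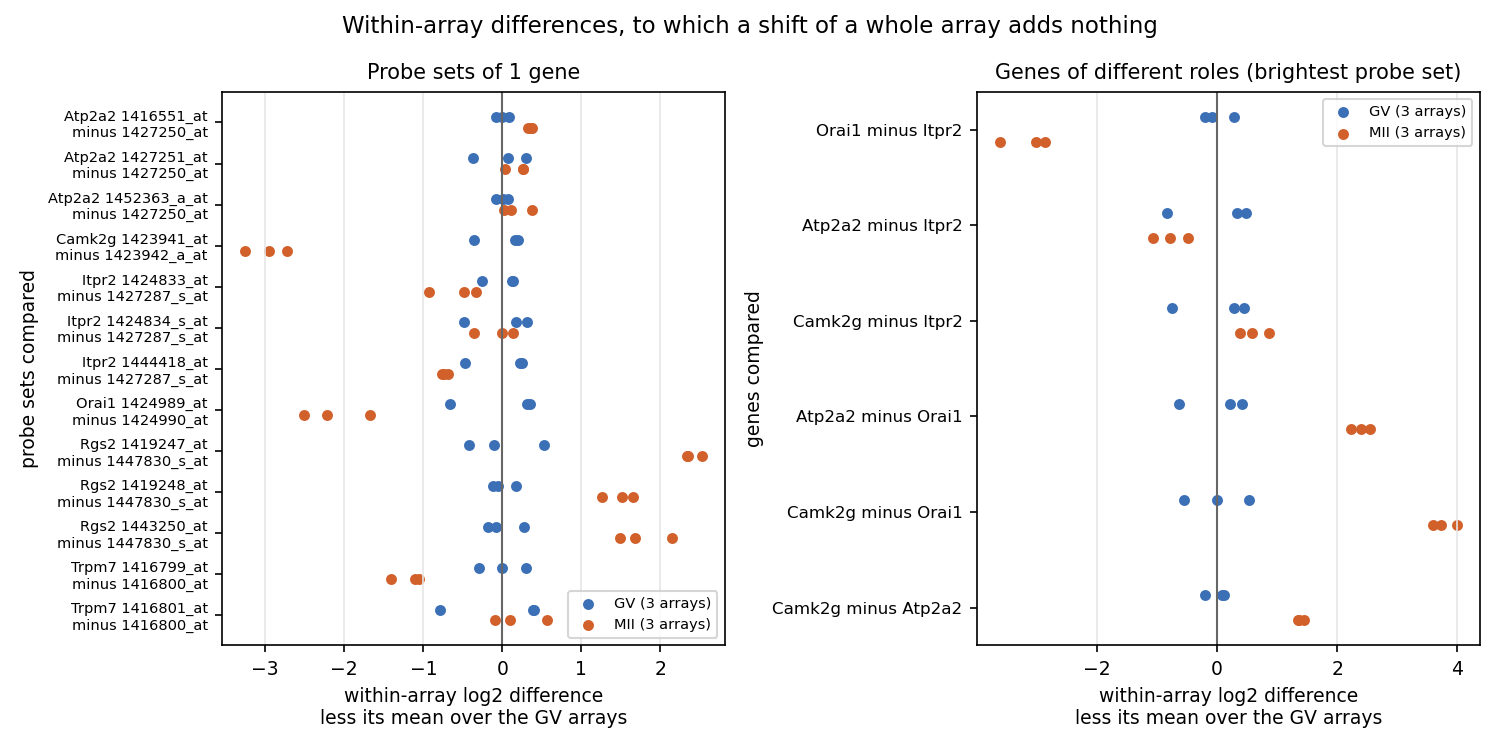
Within-array log2 differences, each less its mean over the 3 GV arrays (horizontal axis), for probe sets of 1 gene (left) and for the brightest probe sets of genes of different roles (right), with the 3 GV arrays in blue and the 3 MII arrays in orange. On the left the MII points of the Camk2g, Orai1 and Rgs2 comparisons lie apart from the GV points. So do those of Trpm7 1416799_at, Itpr2 1424833_at and 1444418_at, and Atp2a2 1416551_at, each against its gene's brightest probe set. On the right the stages lie apart in all pairs with Orai1 and in Camk2g minus Atp2a2.

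Roles were compared in the same way, by the brightest probe set of Orai1 for entry, Atp2a2 for the pump and Camk2g for the effector. Brightness was taken over both stages, so the choice was not independent of the stage difference. In GV oocytes alone the other probe sets of Orai1 (8.77 against 8.17) and Camk2g (9.39 against 9.30) were brighter. The same was so for Trpm7 (6.86 for 1416799_at against 6.41). Atp2a2 minus Orai1 was 3.61, 4.45 and 4.66 in GV and 6.48, 6.79 and 6.63 in MII oocytes, so the pump gene gained on Orai1 by 2.39 ± 0.33 (SE, log2). Camk2g gained on Orai1 by 3.78 ± 0.34 and on Atp2a2 by 1.38 ± 0.11, and in none of these 3 pairs did the stages overlap. The share of all gene pairs without overlap was not computed, so this count says nothing particular about these genes. With the other probe set of Camk2g, a choice made after the data were seen, it still gained on Orai1 by 0.80 ± 0.20 but moved by -1.60 ± 0.19 against Atp2a2, so the order of pump and effector depends on the probe set. With Trpm7 standing for entry, likewise chosen later, Atp2a2 minus Trpm7 moved by -0.07 ± 0.19 with overlapping stages (exact permutation p = 0.7), while Camk2g gained 1.32 ± 0.24 on Trpm7. The gain of the pump gene thus holds against Orai1 and not against Trpm7 1416800_at, its brightest probe set. Trpm7 1416799_at fell further than Atp2a2 1427250_at (-1.52 against -0.40), and the pair with it was not computed. The result for Trpm7 may therefore depend on the probe set. With Itpr2 standing for release, also chosen later, Orai1 moved by -3.16 ± 0.27 against it, while Atp2a2 minus Itpr2 (-0.77 ± 0.45) and Camk2g minus Itpr2 (0.61 ± 0.40) overlapped between stages. The exact permutation p of each pair without overlap was 0.1, the smallest possible, and 0.1 to 0.15 after adjustment within each set of 3 or 6 pairs.

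Across the other genes of the pathway, grouped by role from general knowledge, 75 of 132 listed symbols (older and newer names of a gene included) had probe sets. By the brightest probe set, limma called 7 higher (9.33%, against 10.5% of all genes) and 27 lower (36.0%, against 37.8%), where 48.3% of all genes were called. The genes described above gave 1 higher and 3 lower of 6. The median log2 difference was -0.19, and -0.20 over all genes, close together over the 75 genes, while the medians of single lists ran from -1.13 (pump) and -0.64 (entry) to 0.05 (mitochondrial). The number higher was 4 without MII replicate 1, 41 with array medians equal (18 lower), 28 after quantile normalization (18 lower) and 0 with either set of controls equal (28 lower with hybridization controls, 65 with poly-A controls).

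For release and the supply of IP3, 7 of 21 genes fell and 3 rose (limma; 5 and 14 with array medians equal, 5 and 8 after quantile normalization, 7 and 0 with hybridization controls equal, 18 and 0 with poly-A controls equal). Plce1 and Plcg1, both phospholipases C that make IP3, were at -3.69 and -3.21, against 0.94 for the phospholipase C gene Plcb4 and 0.54 for the Gq family gene Gna14. The Plcg1 fall ended below every MII array median, and its other probe set was at -0.02. Gna14 lost its call without GV replicate 2 or MII replicate 1, was at -0.34 with poly-A controls equal, and had other probe sets called lower at -1.45 and -2.04. Of 8 other regulators of G protein signalling 4 fell, with Rgs10 at -1.51 and Rgs3 at -1.36, and 1 rose, Rgs17 at 0.58 (-0.30 with poly-A controls equal). With array medians equal 2 of the 8 fell and 4 rose, and after quantile normalization 2 and 3.

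Of 5 other entry genes 3 fell and 0 rose (limma; 2 rose with array medians equal and 1 after quantile normalization). Stim2, a sensor of store calcium, was at -2.58 and Trpm6, a close relative of Trpm7, at -1.33, both called in all 5 scalings and both below every MII array median. The other Stim2 probe set was at -0.50 (0.13 with array medians equal). Of 5 pump genes 3 fell, with Atp2c2, a pump of the secretory pathway, at -4.08, also ending below every MII median, and Atp2b3, a plasma membrane calcium pump, at -1.80. The other probe set of Atp2b3 was at -0.63.

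**Figure D4:**
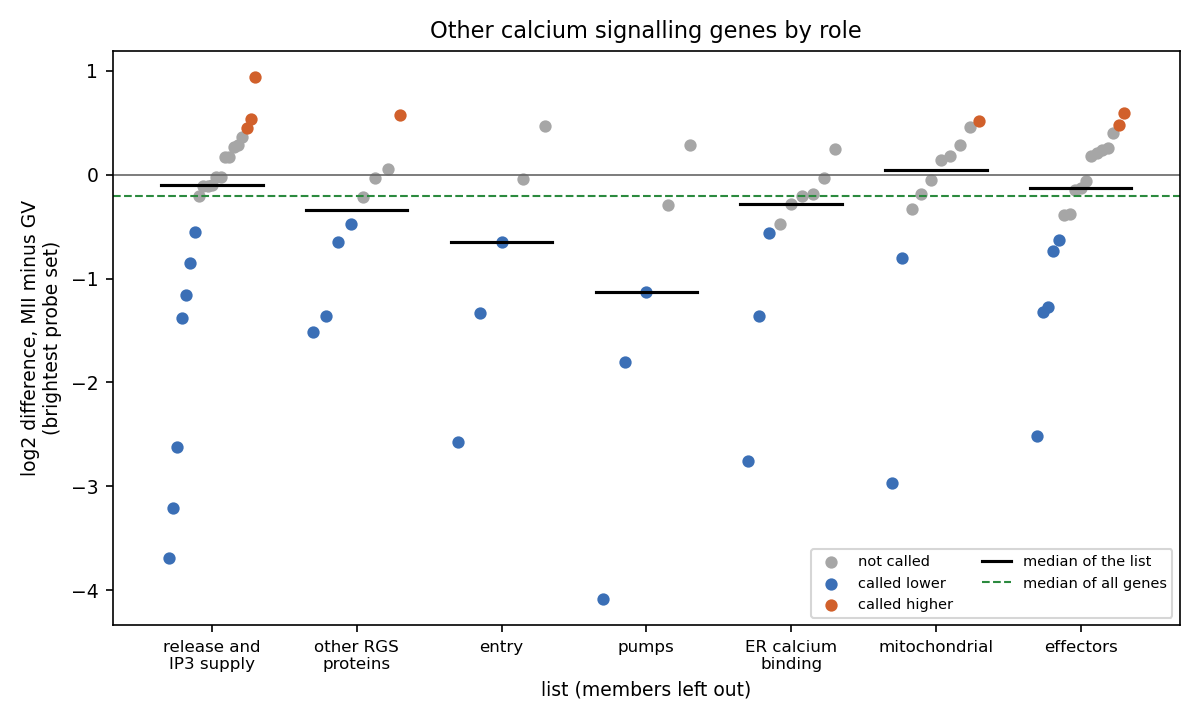
Log2 difference between stages (MII minus GV, vertical axis) of the 75 other calcium signalling genes at their brightest probe set, by list (horizontal axis), coloured by the limma call as deposited, with the median of each list (black bar) and of all genes (dashed line, -0.20). Medians of the entry and pump lists, -0.64 and -1.13 over 5 genes each, lie below that of all genes.

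Among 9 calcium-binding proteins of the endoplasmic reticulum 3 fell and none was called higher (0 by limma; 4 with array medians equal and 2 after quantile normalization). Calr, the calcium-binding chaperone calreticulin, was at -2.76, with its other probe sets at -2.66 and -2.62, and Calu, or calumenin, at -1.36. Of 10 mitochondrial calcium genes 2 fell and 1 rose (1 and 7 with array medians equal, 1 and 5 after quantile normalization, 2 and 0 with hybridization controls equal, 8 and 0 with poly-A controls equal). The outer membrane channel gene Vdac3 was at -2.97, and Smdt1, a subunit of the calcium uniporter, at -0.80 (not called with array medians equal or after quantile normalization). Mcur1, a regulator of that uniporter, was at 0.52 (-0.36 with poly-A controls equal), and its other probe set was called higher at 0.72.

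Of 17 other effector genes 5 fell and 2 rose (3 and 9 with array medians equal, 4 and 8 after quantile normalization, 5 and 0 with hybridization controls equal, 14 and 0 with poly-A controls equal). Among the catalytic subunits of the phosphatase calcineurin, Ppp3cb was at -2.52, although its other probe sets were at 0.63, 0.22 and 0.01, none called. Ppp3cc was called lower but lay below the median of every array at both stages (4.21 ± 0.66 in GV, 2.89 ± 0.10 in MII; SD, n = 3), so no fold is given, and the call was lost with no moderation (adjusted p = 0.069, limma). The calcineurin regulators Rcan1 and Rcan3 were called higher at 0.60 and 0.48, with further probe sets at 0.66 and 1.00, and with poly-A controls equal the first values were -0.28 and -0.39. The Rcan3 value of 0.48 lost its call without GV replicate 2, GV replicate 3, MII replicate 1 or MII replicate 2, while its probe set at 1.00 kept its call without each array.

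The genes with the most similar patterns were sought among 11428 others, at their brightest probe sets, by the root mean square distance over the 6 arrays after each mean was taken off. For Orai1 they were Slc9a3r1 (distance 0.098, log2) and Arfrp1 (0.118), with stage differences of -2.67 and -2.93, both ending below the median of every MII array. Atp2a2 was closest to Rock1 (0.024) and Bmpr1b (0.035), at -0.43 and -0.38. Camk2g was closest to Cbln4 (0.062) and Actg2 (0.067), but Cbln4 lay below the median of every array, at 2.92 in GV and 3.84 in MII oocytes, and Actg2 below that of every GV array, so their rises are not measured sizes. With 6 arrays in 2 stages such a distance mostly reflects the size of the stage difference.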

How the data were processed

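The authors deposited log2 expression values, 1 column per array; RMA and affy are named in the submitters' processing notes, without version or settings. The background correction, any filter on the table and the build were not given in the sources used here. Each of the 6 arrays holds the same 7077 distinct values between 1.85 and 13.3. The table has 21702 rows, of which 56 are controls and were left untested. Of the 21646 tested, 19078 had 1 symbol, 550 several and 2018 none; names follow the array annotation. No intensity filter or pseudocount was used. The stages were contrasted with limma 3.58.1 (R 4.3.3), by lmFit and eBayes with stage as the sole term and 2-sided p-values. These were adjusted by Benjamini-Hochberg across the tested rows, and "called" means an adjusted p under 0.05. A gene is represented by its brightest probe set, that with the highest mean over all arrays. That mean takes in both stages, so the choice can depend on the stage difference. A value below the median of every array of a stage is taken as a bound, since background was not measured. The script was tested on simulated data.

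All probe sets of the genes were named whatever their values. In each pathway list the rule named at most 2 called genes per direction, those that moved most, or the 2 brightest where none was called. The design had Itpr1 stand for release, which could not be done. Genes, lists and tests were chosen with earlier results of these data known. Probe, transcript and protein sequences were not used here.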

Additional observations from a re-analysis of the deposited data

How the results depend on the processing

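The scale between arrays moved the counts most. Over all probe sets, 2358 were higher and 7376 lower as deposited. These counts were 12016 and 4306 with array medians equal and 7538 and 4794 after quantile normalization. With hybridization controls equal they were 104 and 7179, and with poly-A controls equal 65 and 18380. With no moderation 1279 were higher and 6199 lower. When only probe sets above the median mean were tested, 1758 were higher and 4438 lower. Those 2 counts are over fewer probe sets than the full table, so they are not to be set against its counts directly. Without each array in turn 1547 to 2127 were higher and 6668 to 6958 lower. Of the 19 probe sets the number higher was 2 as deposited, 9 with medians equal, 6 after quantile normalization, 0 with either control set equal, 1 with no moderation and 1 to 3 without each array; 16 were lower with poly-A controls equal. Of the 6 genes 1 was higher as deposited, 2 with medians equal or after quantile normalization, 0 with either control set equal, by the mean over probe sets or without probe sets of types _s_at, _x_at and _a_at, and 1 to 2 without each array. Of the 75 pathway genes 7 were higher as deposited, 41, 28, 0 and 0 in the 4 other scalings (65 lower in the last), and 4 to 8 without each array. Of the 6 genes 2 had calls in opposite directions as deposited, 1 with no moderation, 0 with either control set equal and 1 to 2 without each array (alternatives added after seeing the data).

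Signs turned as follows. With array medians equal the values were 0.27 and 0.41 for Itpr2 1444418_at and 1424833_at, 0.55 for Rgs2 1419248_at, 0.29 and 0.48 for Trpm7 1416800_at and 1416801_at, and 0.23, 0.58, 0.39 and 0.41 for Atp2a2 1427250_at, 1416551_at, 1452363_a_at and 1427251_at. After quantile normalization they were 0.31 and 0.23 for the same Itpr2 probe sets, 0.10 for Rgs2, 0.34 and 0.10 for Trpm7, and 0.38, 0.38 and 0.29 for the last 3 of Atp2a2. With hybridization controls equal Itpr2 1427287_s_at was at -0.032, Itpr2 1424834_s_at at -0.11 and Rgs2 1443250_at at -0.19, and with poly-A controls equal at -0.50, -0.57 and -0.66, beside -0.022 for Rgs2 1419247_at. Leaving out 1 array turned Rgs2 1419248_at (-0.16 to 0.0038, the last without MII replicate 1), Trpm7 1416801_at (-0.47 to 0.10, the last without GV replicate 3) and Atp2a2 1416551_at (-0.091 to 0.0085, the last without GV replicate 2). Within arrays, the sign turned for Trpm7 1416801_at minus 1416800_at (-0.24 after quantile normalization, -0.21 to 0.39 without each array), Itpr2 1424834_s_at minus 1427287_s_at (-0.32 to 0.082) and Atp2a2 1427251_at minus 1427250_at (-0.0011 to 0.34), and for Camk2g minus Atp2a2 with the other Camk2g probe set (-1.60) and Atp2a2 minus Orai1 with Trpm7 in place of Orai1 (-0.066), both added after seeing the data. The cause of these changes was not tested.

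The replicate numbers gave little sign of pairing: deviations of same-numbered samples correlated at 0.09, 0.03 and 0.03. In each stage 1 title has no number and was taken as 1. Higher values came from GV 1 with MII 2 (0.17), GV 2 with MII 3 (0.29) and GV 3 with MII 1 (0.18). The remaining pairs gave -0.22 to -0.28. Whether samples of different numbers were handled together was not tested, and the block below uses the same-numbered pairs. With a replicate block limma called 2400 rises and 7300 falls over all rows, and 2 and 5 among the 19, with Atp2a2 1427250_at losing its call (adjusted p = 0.059, limma).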
